A study of Rattus norvegicus with 52 samples.

Results

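Entire liver sections from rats given 0.54% clofibric acid (CA) were compared with entire sections from rats given 0.29% CA, on 14 of the 52 arrays of the series. The arrays were chosen by their source label, 6 at 0.54% and 8 at 0.29%. Another 8 arrays of entire sections from untreated rats give the level without the drug. The same dose step was also measured in stained sections, on 5 arrays at 0.54% and 7 at 0.29%, with 8 untreated stained arrays beside them. All rats were of the inbred F344 strain, and the labels name no altered gene and no agent other than CA. The sources used here do not state the sex or age of the rats, or how and for how long CA was given. The labels also do not say that replicates came from separate animals or that stained and entire sections came from different ones. The p-values therefore measure the spread between these samples, part of which may be technical.

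CA is a fibrate, a lipid-lowering drug that activates the nuclear receptor PPARα. PPARα binds DNA together with the retinoid X receptor and switches on genes for the uptake, transport and oxidation of fatty acids in liver. In rats, fibrates also enlarge the liver and make its peroxisomes multiply. The question of the comparison was what goes on changing in the liver once the lower dose is exceeded.

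The arrays measured 8740 non-control probe sets, each a group of oligonucleotides for 1 transcript or for several similar ones, as a linear intensity. The files do not pair probe sets with genes, so the changes below carry probe set IDs and no gene names or functions. For the same reason the liver could not be checked against its marker genes, nor other cell types against theirs. A bulk section also does not separate fewer cells of a type from less RNA per cell. In place of gene functions, probe sets were grouped by how CA moved them in stained sections, on arrays that the entire-section comparison did not use.

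The mean intensity of the 22 entire-section arrays lay between 163 and 202, and 29.2% to 36.2% of the probe sets on an array were at or below the floor of 4. For GAPDH, signal at the 3' end was divided by signal at the 5' end, a measure that grows as RNA breaks down. On entire-section arrays this GAPDH ratio ran from 1.18 to 6.49. It was above 4 on 3 arrays, 1 in each dose group: replicate 5 at 0.54%, replicate 7 at 0.29% and control replicate 7. Replicate 6 at 0.54% stood apart in another way, with 24.2% of its signal in the 50 brightest probe sets, against 12.14% to 16.01% on the other 5 arrays of its group. On the stained arrays the GAPDH ratio ran from 2.59 to 18.9. Among them replicate 7 at 0.29% was the dimmest, with a mean intensity of 132, against 149 to 196 on the other 19, and the lowest median correlation with its group, 0.875. Of 7 quality measures compared in entire sections between 0.54% and 0.29%, none passed an exact permutation test (two-sided, smallest p = 0.271, adjusted 0.754).

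At 0.54% CA, 37 probe sets were higher and 42 lower than at 0.29% in entire sections. These 79 calls are 1.01% of the 7804 probe sets tested with limma at a Benjamini-Hochberg adjusted p under 0.05, 0.474% for the higher and 0.538% for the lower ones. At an unadjusted p under 0.05 there were 851 probe sets, or 10.9%. Set against untreated liver in the same fit, 1236 probe sets (15.8%) were called at 0.54%, 632 of them higher (8.1%) and 604 lower (7.74%). At 0.29% there were 877 (11.2%), with 433 higher (5.55%) and 444 lower (5.69%). Both comparisons share their control arrays, and each shares 1 CA group with the dose step.

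Of the 79 calls, 32 had a step of at least 2-fold. Among the 37 higher calls the log2 difference ran from 0.40 to 3.17 with a median of 1.08, and 19 were at least 2-fold higher. Among the 42 lower calls it ran from -2.76 to -0.38 with a median of -0.72, and 13 were at least 2-fold lower. The median over all tested probe sets was 0. Calls came mostly from bright probe sets. The median intensity over the 14 CA arrays was 134 for the higher and 286 for the lower calls, against 24.7 for all tested, and 67 of the 79 were above the floor on all 14 arrays (84.8%), against 4048 of the 7804 tested (51.9%). The standard error of a log2 difference had a median of 0.17 among the calls and 0.24 among all tested.

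The dose groups overlapped for most calls. All 6 arrays at 0.54% lay above all 8 at 0.29% for 18 of the 37 higher calls, and below them for 12 of the 42 lower ones. Over all tested probe sets such a separation was found upwards for 0.423% and downwards for 0.205%, or 0.628% in all. In 6 of 14 fits that left out 1 CA array, the number of calls fell by more than 1.5 times. It was 33 without replicate 2 and 41 without replicate 5 at 0.54%. At 0.29% it was 47 without replicate 1 or replicate 2, 45 without replicate 3 and 39 without replicate 4. Without the 3 arrays of high GAPDH ratio 84 probe sets were called, of which 55 were among the 79.

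**Figure D1:**
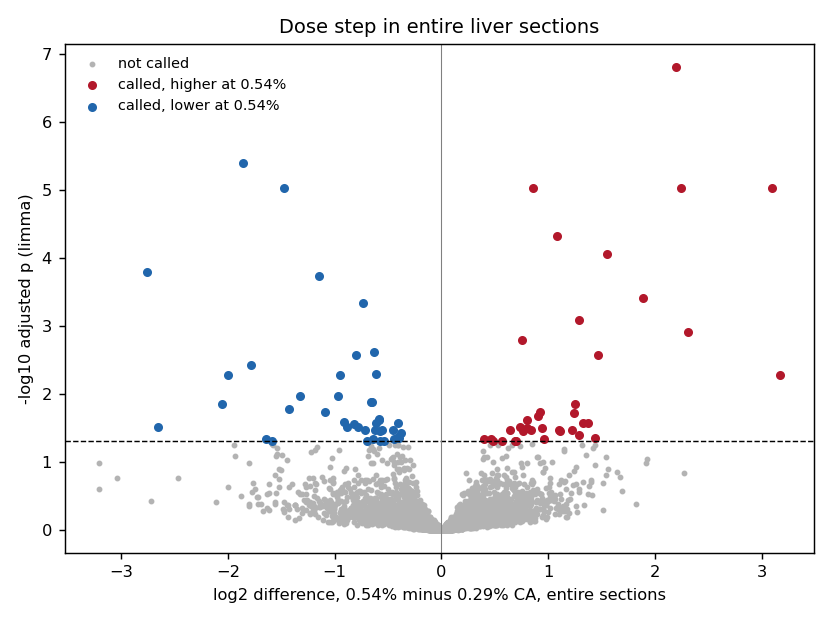
Each point is 1 of 7804 probe sets in entire sections. The horizontal axis is the log2 difference, 0.54% minus 0.29% CA, and the vertical axis is -log10 of the adjusted p from limma. Red and blue points above the dashed line at an adjusted p of 0.05 are the 37 higher and 42 lower calls.

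Both of the largest called rises were of probe sets with little or no signal at 0.29% CA. Probe set j04486_at had intensities of 64, 122, 20, 134, 216 and 54 on the 6 arrays at 0.54%. At 0.29% it had 10, 4, 16, -4, 13, -2, 28 and -4, of which 4 were above the floor. Only replicate 3 at 0.54% overlapped the lower dose, and only with replicate 7 there. The untreated arrays ran from -17 to 39 with a median of 7.5, close to the median of 7 at 0.29%. The step was 9.02-fold (log2 3.17 ± 0.56, SE, adjusted p = 0.00528), while 0.29% differed from control by a log2 of -0.18 ± 0.52 (SE, adjusted p = 0.904). Because the lower dose lay partly at the floor, the size depends on it, and a floor of 20 gave a log2 step of 1.67.

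Probe set a09811cds_s_at had 28, 88, 17, 106, 105 and 30 at 0.54% CA. At 0.29% it had -3, 5, -8, 4, 10, -1, 3 and 6. Every array at 0.54% was above every array at 0.29% and above every control, the highest of which had 5. The step was 8.54-fold (log2 3.09 ± 0.33, SE, adjusted p = 9.18e-06), and 0.29% differed from control by a log2 of 0.17 ± 0.31 (SE, adjusted p = 0.829). Here 5 of 8 arrays at 0.29% were at the floor, and a floor of 20 gave a log2 step of 1.06.

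The largest called falls differed in what the lower dose had already done. Probe set x14552_at had 13, 30, 1, 12, 30 and 30 at 0.54% CA. At 0.29% it had 150, 132, 137, 98, 88, 62, 242 and 56. All arrays at 0.54% lay below all at 0.29%, and those lay below all 8 controls, which ran from 249 to 469 with a median of 351. The probe set was 6.77-fold lower at 0.54% than at 0.29% (log2 -2.76 ± 0.36, SE, adjusted p = 0.000159). At 0.29% it was 3.17-fold lower than in controls (log2 -1.67 ± 0.33, SE, adjusted p = 0.00145). It therefore fell at both steps. Because the arrays at 0.54% were dim, a floor of 20 gave a smaller log2 step, -2.01.

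Probe set s81478_s_at had 222, 26, 44, 22, 25 and 3 at 0.54% CA. At 0.29% it had 386, 339, 359, 157, 50, 191, 191 and 91. Of the arrays at 0.54%, only replicate 1 lay within the range of the lower dose, and it was also inside the control range of 152 to 354. The probe set was 6.28-fold lower at 0.54% (log2 -2.65 ± 0.58, SE, adjusted p = 0.0303). At 0.29% it differed from control by a log2 of -0.38 ± 0.54 (SE, adjusted p = 0.754). Its call was the least firm of the 4, since it was lost in 7 of 14 fits that left out 1 array, with adjusted p up to 0.086. The lost calls were those without replicates 1, 2, 3 or 4 at 0.29% and without replicates 2, 5 or 6 at 0.54%. It was also lost without the 3 arrays of high GAPDH ratio, whereas those fits called the other 3 probe sets.

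**Figure D2:**
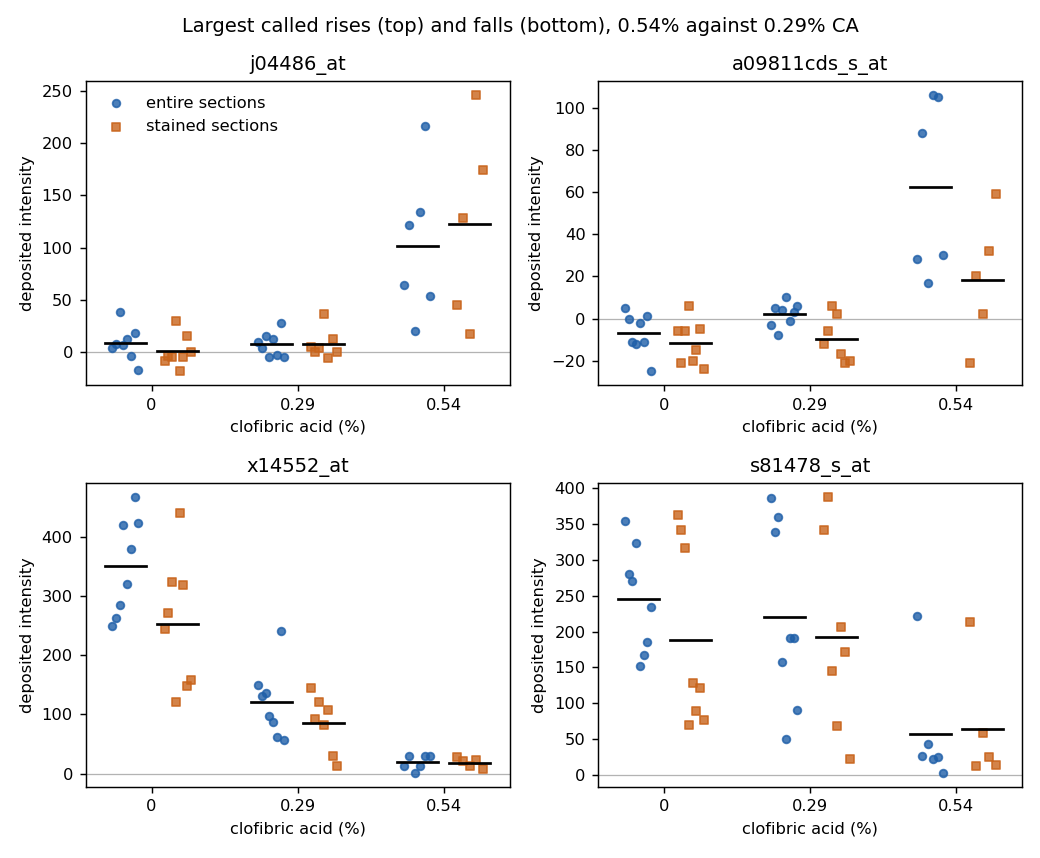
Deposited intensity of the 4 probe sets with the largest called rises (top) and falls (bottom), by CA dose. Blue circles are entire-section arrays, orange squares stained-section arrays, and black bars group means. In entire sections the upper pair is raised on most or all arrays at 0.54% only, and x14552_at declines at each dose. Probe set s81478_s_at is low on most arrays at 0.54%, with replicate 1 apart in both preparations.

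Stained sections gave the same direction for nearly all of these calls, but they may come from the same animals as the entire sections. The agreement is therefore not known to be a repeat in separate animals. Whether same-numbered arrays of entire and stained sections share an animal was not tested. Of the 37 higher calls, 35 were tested in stained sections and 34 of them (97.1%) were higher at 0.54% there. Of the 42 lower calls, 37 (88.1%) were lower there. Over all 7526 probe sets tested in both preparations, 53.0% had the same sign. The median log2 step of the calls in stained sections was 0.71 for the higher and -0.39 for the lower ones, closer to 0 than in entire sections, on whose arrays the calls had been chosen. At an unadjusted p under 0.05, 16 of the higher and 17 of the lower calls passed in stained sections in the same direction, against 4.73% of all probe sets there in either direction. The calls had a higher median intensity than all tested probe sets, and how far brightness accounts for these contrasts was not tested. Without the dim replicate 7 at 0.29%, 32 of the 35 higher and 38 of the 42 lower calls had the same direction, with medians of 0.76 and -0.46. The part of RNA quality in the smaller stained steps was not tested.

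In stained sections themselves 5 of 7913 probe sets passed the adjustment (0.0632%), 2 of them higher (0.0253%) and 3 lower (0.0379%). Of these 5, 3 were also called in entire sections, each in the same direction, which is 60% of the stained and 3.80% of the entire calls. A direct test of whether the dose step differed between preparations called 0 of 8191 probe sets with limma, and 395 had an unadjusted p under 0.05 (4.82%). It took entire and stained arrays as unpaired, although they may share animals. Among the 79 calls of entire sections, 11 had an unadjusted p under 0.05 in this test. The calls were chosen by their step on entire-section arrays, which also enter the difference, so that count is no separate evidence of one.

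**Figure D3:**
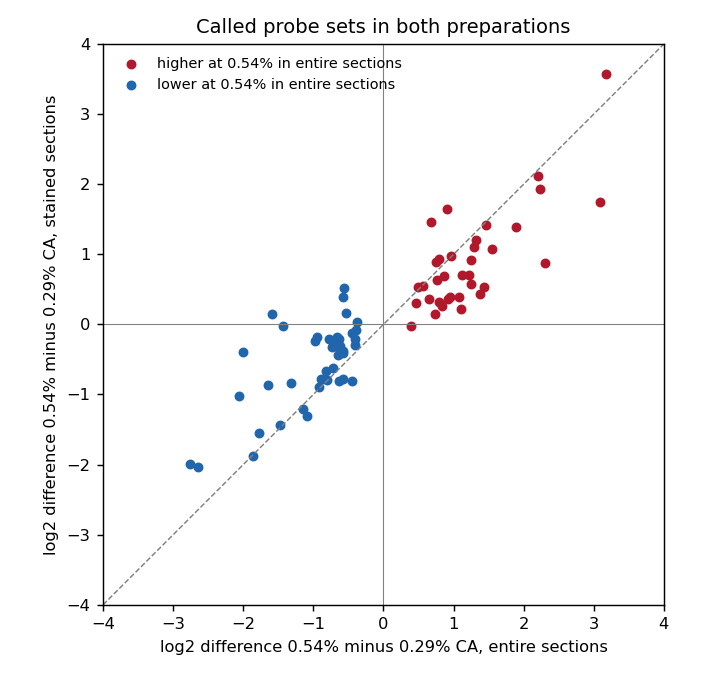
Log2 difference, 0.54% minus 0.29% CA, in entire sections (horizontal) and stained sections (vertical) for the 77 called probe sets tested in both. The dashed line marks equal steps. Of the points, 34 red ones lie in the upper right and 37 blue ones in the lower left.

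The 4 probe sets with the largest called steps had the same direction in stained sections. Probe set j04486_at had 45, 128, 18, 246 and 174 at 0.54% and -5 to 37 at 0.29%, with a median of 4 (log2 step 3.57 ± 0.73, SE, adjusted p = 0.077). Probe set x14552_at had 28, 21, 12, 23 and 8 at 0.54% and 13 to 145 at 0.29%, with a median of 93 (log2 -1.997 ± 0.44, SE, adjusted p = 0.141). Neither step passed the adjustment. The log2 step of a09811cds_s_at was 1.75 ± 0.50 (SE, adjusted p = 0.56). That of s81478_s_at was -2.04 ± 0.69 (SE, adjusted p = 0.827), and neither of these passed either. In stained sections too, replicate 1 at 0.54% was the high array for s81478_s_at, with 213 against 13 to 58 on the other 4. Against stained controls, 499 probe sets were called at 0.54% CA (6.31%), 247 higher (3.12%) and 252 lower (3.18%). All 4 were among them, in the same direction as in entire sections, with adjusted p between 3.21e-06 and 0.0428.

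By the same rule, stained sections named m15114_g_at as their largest called rise and l02529_at and j00738_s_at as their largest called falls. In entire sections m15114_g_at had 116, 249, 211, 194, 303 and 98 at 0.54% and 42, 40, 46, 34, 32, 29, 45 and 36 at 0.29%. All control arrays were at the floor, between -14 and 2, so this probe set appeared at the lower dose and was brighter on every array of the higher one. Probe set j00738_s_at had 498, 289, 474, 316, 356 and 355 at 0.54% and 1372, 1286, 1427, 1187, 1389, 1345, 1657 and 697 at 0.29%. Its controls ran from 3004 to 4597, so the 3 dose groups did not overlap. Against 0.29%, the log2 step of j00738_s_at was -1.86 ± 0.18 (SE, adjusted p = 3.96e-06), and at 0.29% it was -1.69 ± 0.16 (SE, adjusted p = 1.44e-07) against control. Its step in stained sections was -1.88 ± 0.22 (SE, adjusted p = 0.000469). For m15114_g_at the log2 step was 2.20 ± 0.17 in entire (SE, adjusted p = 1.55e-07) and 2.12 ± 0.37 in stained sections (SE, adjusted p = 0.0354). The stained calls of m15114_g_at and l02529_at were each lost in 8 of 12 fits that left out 1 array, with adjusted p up to 0.116 and 0.141. Both were lost without replicates 1, 2 or 3 at either dose, m15114_g_at also without replicates 4 or 5 at 0.54%, and l02529_at also without replicates 5 or 6 at 0.29%. With a floor of 20 the stained step of l02529_at was -1.30 and not called (adjusted p = 0.322). Probe set l02529_at, lower at 0.54% in stained sections (log2 -2.80 ± 0.51, SE, adjusted p = 0.0371), had a step of -0.46 ± 0.71 (SE, adjusted p = 0.87) in entire sections. The difference between the preparations did not pass the adjustment (unadjusted p = 0.0147, adjusted 0.931).

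Other preparations had 1 array at each dose and were not tested, and they too may share animals with the entire sections. Of the 37 higher calls, the step had the same sign for 23 of 33 probe sets with signal in dehydrated sections, 26 of 33 in LCM-reference-time sections and 28 of 33 in microdissected liver. Of the lower calls the numbers were 28 of 41, 35 of 42 and 35 of 42 in that order. Over all probe sets with signal on either array, 46.7%, 51.7% and 57.7% had the same sign as in entire sections. Of the 4 probe sets with the largest called steps, j04486_at was brighter at 0.54% in each. It had 227 against 34 at 0.29% in dehydrated sections, 167 against 16 in LCM-reference-time sections and 175 against 4 in microdissected liver. Probe set a09811cds_s_at was at the floor at both doses in dehydrated sections, with -7 against -10, and had 50 against -16 and 58 against -12 in the other 2. One of 2 microdissected controls, however, had 151 for it. Probe set x14552_at had 12 against 166 in dehydrated and 15 against 22 in LCM-reference-time sections, but 18 against -8 in microdissected liver, the opposite direction. Probe set s81478_s_at had 12 against 190 in dehydrated sections, 13 against 13 in LCM-reference-time sections and 4 against 16 in microdissected liver.

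The CA response was next followed as a class. In stained sections 145 probe sets were higher at 0.29% CA than in control (1.83%) and 141 were lower (1.78%), 286 in all (3.61%). These groups were formed without any entire-section array, although the animals may have been the same. In entire sections the 145 raised probe sets were at a median log2 of 1.37 above control at 0.29% and 1.52 at 0.54%. The 141 lowered probe sets were at -1.03 and -1.15. Most of the median departure of these classes from control was present at the lower dose. They hold only probe sets called at 0.29% in stained sections, so this was partly set by their choice. Probe sets that moved only above the lower dose are left out of them.

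Beyond the lower dose the medians of both classes lay a little further in the direction they had taken. The median step from 0.29% to 0.54% in entire sections was 0.19 for the raised and -0.15 for the lowered probe sets, and 0 for the 7240 called in neither direction. Of the raised probe sets 106 of 145 (73.1%) were higher at 0.54%, and of the lowered ones 91 of 141 (64.5%) were lower. On the deposited scale the medians were 0.10 and -0.21, and that of the lowered class was -0.09 with array weights and -0.08 with a floor of 20. With classes formed without stained replicate 7 at 0.29%, of 156 raised and 132 lowered probe sets, the medians were 0.18 and -0.15.

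Some of these probe sets were themselves called for the dose step in entire sections. Of the raised probe sets 12 (8.28%) were called higher at 0.54%, where the background was 0.474%, and 1 was called lower. Of the lowered probe sets 12 (8.51%) were called lower, where the background was 0.538%, and 1 was called higher. The other 51 calls tested in both preparations, 22 higher and 29 lower, were of probe sets not called at 0.29% in stained sections. They make up 66.2% of the calls, while 96.2% of all probe sets tested in both were not called there. In that group 0.304% were called higher and 0.401% lower at the dose step. The backgrounds of 0.474% and 0.538% are over all 7804 tested probe sets, while most of both classes were bright. A mean intensity above the 75th percentile was found for 115 raised and 103 lowered probe sets, and for 2449 of all tested. With the test limited to those 2449, 43 were called higher and 68 lower. How far brightness accounts for the contrast with the background was not tested. The 37 higher calls had a median of 0.59 at 0.29% against control in entire sections, with 24 above and 11 below control, and 1.58 at 0.54%. The 42 lower calls had a median of -0.42 at 0.29%, with 32 below and 10 above control, and -1.10 at 0.54%. These values share the 0.29% or the 0.54% arrays with the step by which the calls were chosen.

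Averaged per array, the 145 raised probe sets were 1.70 to 2.06 above the entire controls at 0.54% CA, with a median of 1.97 on the log2 scale. At 0.29% they were 1.60 to 1.86 above, with a median of 1.65. The groups overlapped, because replicate 6 was the lowest array at 0.54% and replicate 6 the highest at 0.29%. Both were also the arrays of their group with the lowest weight in a fit with array weights, at 0.26 and 0.35. The 141 lowered probe sets were at -1.36 to -1.22 at 0.54%, with a median of -1.30, and at -1.26 to -0.95 at 0.29%, with a median of -1.17. No control array came near either dose, the control values lying between -0.12 and 0.19 for the raised and between -0.07 and 0.22 for the lowered class.

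**Figure D4:**
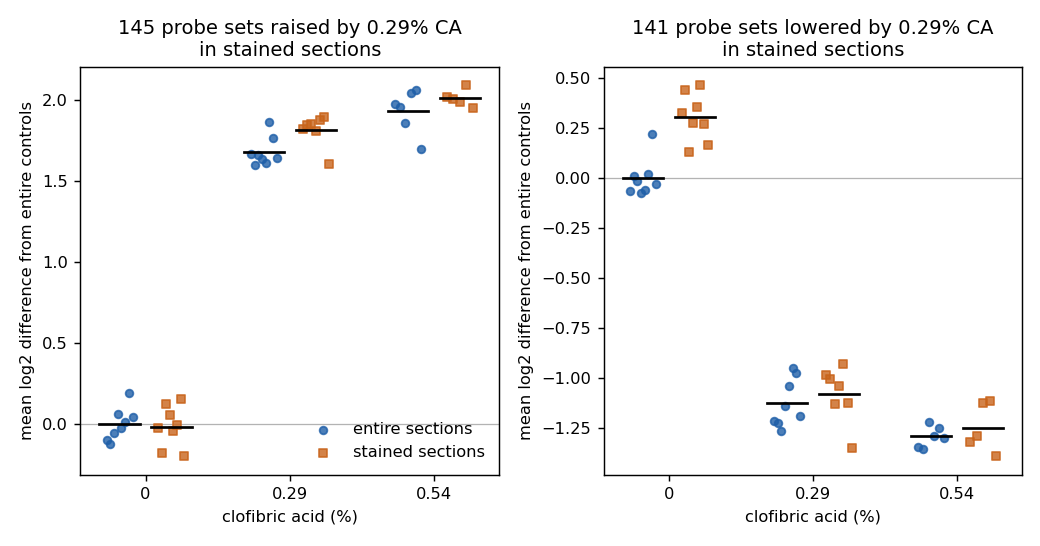
Mean log2 difference of each array from the entire controls, by CA dose, for probe sets raised (left) or lowered (right) by 0.29% CA in stained sections. Blue circles are entire and orange squares stained arrays, and black bars are group means. The change up to 0.29% is larger than the step to 0.54%, at which entire arrays of the 2 doses overlap in both classes. Stained arrays of the raised class do not, with 1.95 to 2.09 at 0.54% and 1.60 to 1.89 at 0.29%. The stained arrays chose the probe sets by a change at 0.29%, so the larger change up to that dose is partly built in. The 0.29% values of stained arrays are no separate evidence.

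Some transcripts are covered by several probe sets, which gives a second reading on the same arrays. For 17 of the 79 calls another tested probe set carried the same sequence accession in its ID, which gave 15 distinct pairs. In 14 of the 15 both probe sets had the same sign, and in 2 both were called in that direction. Over all 932 such pairs on the array 63.7% had the same sign. Probe sets of 1 accession may share oligonucleotides, so they are not independent readings.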

How the data were processed

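Total RNA of liver sections was hybridized to one-colour arrays, 1 per sample. The authors deposited, for every array, a whole-number linear intensity of each of 8799 probe sets, 59 of them controls. How they summarised and scaled it is not stated in the labels. On each array 20.6% to 30.1% of values were negative.

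Intensities under 4, the 10th percentile of the positive ones, were raised to 4, log2 was taken and the non-control probe sets of all 52 arrays were quantile normalized. Folds and log2 values are on that scale, and plain intensities are as deposited. The 3 dose groups of entire sections were fitted together with limma 3.58.1 in R 4.3.3 (lmFit, eBayes, two-sided), as were those of stained sections. The test of the difference between preparations used all 6 groups. A probe set entered a test if any array of the fit exceeded the floor, and p-values adjusted over all of them. Quality measures were compared by exact permutation (SciPy 1.17.1, Python 3.11.15), and plots drawn with matplotlib 3.10.9. The limma test of the dose step in entire sections was also run on simulated log2 values. Flooring, normalization, the probe set classes and the permutation tests were not part of that simulation.

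The samples, tests and probe set classes were chosen with earlier results of these data known. Gene lists, cell type markers and a rule for naming genes had been written by symbol, but 0 accessions in the probe set IDs matched the RefSeq gene table, so none of them could be used and no sequence is shown. Instead up to 2 largest called rises and 2 largest called falls are given per comparison, among probe sets above the floor on every array of at least 1 of the 2 dose groups. The classes of raised and lowered probe sets, the values without stained replicate 7 at 0.29% and the comparison of probe sets with 1 accession were added after the data had been seen. No 2 arrays held identical values, and the highest correlation between entire-section replicates was 0.978. The number of arrays limits the precision. Alternatives were other scaling, floor, filter, samples, weights, variance prior, a replicate block, the GAPDH ratio and leaving out arrays.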

Additional observations from a re-analysis of the deposited data

Results flagged for a closer look

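Within groups of 5 to 8 arrays, 10 values in 75 groups examined lay farther from the nearest other array than a Dixon test allows, where chance gives about 1 group in 20. Replicate 1 at 0.54% CA had an intensity of 222 for s81478_s_at in entire sections, against 3 to 44 on the other 5 arrays, and 213 in stained sections, against 13 to 58 on the other 4. Replicate 4 at 0.29% in stained sections had 37 for j04486_at, against -5 to 13 on the others. Entire control replicate 2 had -14 for m15114_g_at, below the floor like the other controls at -4 to 2. Entire control replicate 5 had 0 for l02529_at, against 57 to 107. The mean of the raised probe sets was 1.60 on stained replicate 7 at 0.29%, against 1.81 to 1.89, and that of the lowered probe sets was 0.22 on entire control replicate 7, against -0.07 to 0.02. On entire replicate 6 at 0.54%, 24.2% of the signal came from the 50 brightest probe sets, against 12.14% to 16.01%. On entire control replicate 7 the log2 3'/5' ratio was 2.64 for GAPDH, against 0.32 to 0.94, and 2.69 for beta-actin, against 0.59 to 1.44.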

How the results depend on the processing

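The number of probe sets differing between 0.54% and 0.29% CA in entire sections, 79, depended on the processing. It was 47 on the deposited scale, 132 with a floor of 20, 41 with all 15 groups, 27 with the 14 CA arrays alone, 331 with array weights, 32 with a 2-fold minimum, 211 with the replicate block and 33 to 118 on leaving out 1 array. It stayed within 1.5 times under the other 5 alternatives. The 37 higher and 42 lower calls became 18 and 29 on the deposited scale, and 18 and 9 with the 14 CA arrays alone. The 2-fold minimum only removes calls. Otherwise the cause was not tested. Replicate numbers gave no clear pairing of the dose groups. Deviations of same-numbered arrays at 0.54% and 0.29% correlated between -0.15 and 0.47, and 1 of 6 arrays correlated best with its own number. For 0.29% and control the range was -0.03 to 0.72, with 2 of 8 best at their own number. For 0.54% and control it was -0.33 to 0.30, with 0 of 6. In stained sections the block left 1 of 5 calls, with m15114_g_at and l02529_at lost (adjusted p 0.0861 and 0.331). The 1236 calls at 0.54% against control became 790 with all 15 groups and 1933 with array weights, and the 877 at 0.29% became 539 with all 15 groups. Of the calls at 0.54% against control 51.1% were higher, and 37.6% on the deposited scale, which had a median difference of -0.11 over all tested. Stained sections gave 10 calls with a floor of 20 and 1 to 9 on leaving out 1 array: 1 without replicate 1 or 3 at either dose or 2 at 0.29%, 2 without replicate 2 at 0.54% or 6 at 0.29%, 3 without replicate 5 and 9 without replicate 4 at either dose. The difference between preparations gave 5 calls with a floor of 20 and 0 to 3 on leaving out 1 array: at 0.54%, 3 without stained replicate 4 and 1 without stained replicate 5 or entire replicate 1 or 5. The steps of j04486_at, a09811cds_s_at and x14552_at kept their direction and call in all alternatives in which they were tested, with adjusted p up to 0.0222, 0.0474 and 0.00686. That of s81478_s_at kept its direction, at a log2 of -3.20 to -2.13, and lost its call in 9 of 26 (adjusted p 0.00136 to 0.141). The median step of the lowered class stayed below 0, at -0.21 to -0.08, and that of the raised class above 0, at 0.10 to 0.22. Signal near the floor limits the size of steps of dim probe sets.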
